A study of Danio rerio with 3 samples.

Results

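Axon guidance ligands and receptors of the zebrafish brain were described as all genes whose symbol begins with sema, plxn, robo, slit, unc5, efna or efnb, or with epha or ephb and a digit. This rule took 93 of the 32057 genes in the annotation, without regard to their counts: 30 semaphorins, 12 plexins, 5 Robo and 4 Slit genes, 6 Unc5 genes, 8 ephrin-A, 5 ephrin-B, 8 EphA and 7 EphB genes. It also took 7 slitrk genes, whose products are synaptic adhesion proteins and not Slit ligands, and unc50, which does not encode an Unc5 receptor. They stay in the counts of guidance genes below. The study addressed the effect of zinc on the brain of Danio rerio with single-cell RNA libraries made by a 10x Genomics droplet protocol, in which each captured molecule is counted once by its unique molecular identifier (UMI). There was 1 library each of brain labelled Ctrl, Zn10 and Zn15, and the labels give no unit for the 10 and 15, zinc compound, duration, strain, age, sex or number of fish. A difference between libraries therefore cannot be told apart from a difference between treatments.

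The guidance families work as ligand and receptor pairs at the growth cone, the moving tip of an axon. Semaphorins are read by plexins, with neuropilins as co-receptors of the secreted class 3 members. Slits are repellents read by Robo receptors, Unc5 proteins are receptors for netrins, and ephrins and Eph receptors signal in both directions between touching cells. Several of these genes have later uses in myelinating glia, in microglia and in vessels.

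The libraries held 1698707 UMIs in 5679 barcodes (Ctrl), 974866 in 2850 (Zn10) and 1634806 in 5154 (Zn15). Barcodes were shallow, with a median of 240 to 271 UMIs, and the nuclear RNA malat1 took 27.0 to 32.3% of all UMIs. Between 4 and 8 barcodes were shared by any pair of libraries. No doublet removal was applied. Barcodes were put into a class when they had at least 2 UMIs of its marker genes and more than of any other class. Among 13683 barcodes this gave 3673 neurons, 1481 newborn neurons, 303 dividing cells, 124 oligodendrocyte precursors (OPCs), 1347 oligodendrocytes, 1479 radial glia and 916 microglia, while 4298 had no class. These classes are marker-positive barcodes and not sorted cells: 46.0% of the OPC barcodes were exactly at the 2-UMI minimum, against 1.48% of oligodendrocyte barcodes.

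A second set of classes came from Leiden clusters computed without the guidance genes and named by the number of class markers raised in each. The sets overlap only in part. The dividing cluster of 1452 barcodes held 434 marker-positive newborn neurons, 208 neurons and 185 dividing cells, a newborn neuron-like cluster of 1028 held 357 marker-positive neurons, and the OPC-like cluster held 73. Of the 1479 radial glia barcodes, 259 fell in the cluster of 620 barcodes led by olig1 and named OPC-like. Calls that end in the cluster classes are therefore named below, and cluster levels are descriptions.

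Guidance genes contributed 11054 UMIs, a level of 2429, 2888 and 2516 CPM in Ctrl, Zn10 and Zn15, where CPM is the count of a gene relative to all UMIs of the library or class. Of the 93 genes, 3 had no UMI in any library (plxnd1, sema4aa and 1 of the 2 plxnb2a entries), 27 had 1 to 9, 11 had 10 to 19, 32 had 20 to 99 and 20 had 100 or more. Semaphorins gave 43.2% of these UMIs, plexins 13.0%, EphA receptors 12.7% and Unc5 receptors 0.561%. A single gene, sema5a, gave 3839 of the 4774 semaphorin UMIs. Among the 6 Unc5 genes only unc5c reached 20 UMIs in all, and the family stood at 16.5, 14.4 and 12.2 CPM in Ctrl, Zn10 and Zn15. Levels here are not divided by transcript length, so counts rank genes by how well they are measured and not by how much of each the cells hold.

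**Figure D1:**
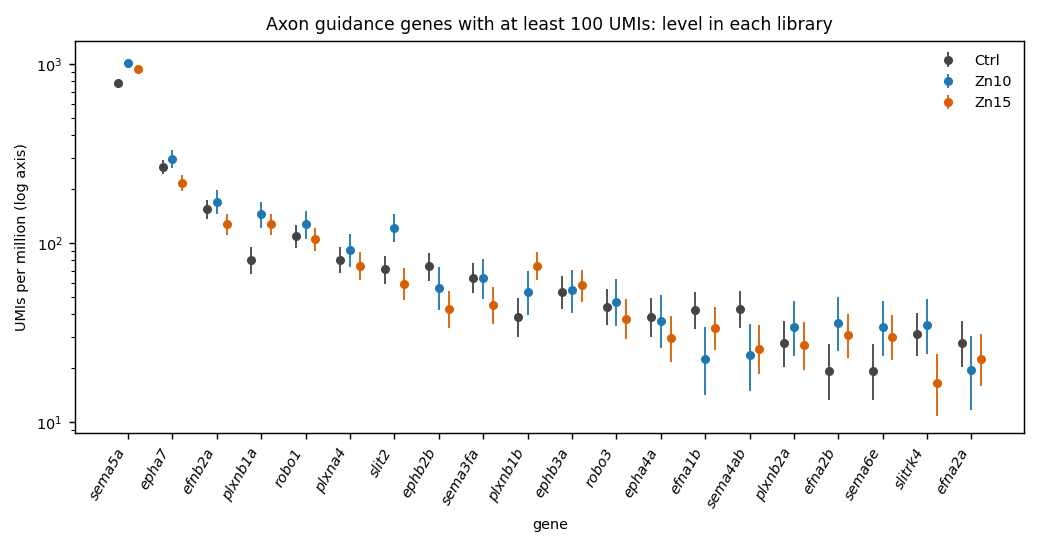
Level of the 20 guidance genes with at least 100 UMIs in each library, in CPM on a log axis, with exact Poisson intervals of 95% that cover counting error only. The points of sema5a lie at 780, 1006 and 938 in Ctrl, Zn10 and Zn15, and its 3 intervals are the narrowest of the genes shown relative to their level.

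Class differences were tested with edgeR's quasi-likelihood test on UMI sums, with each library giving a sum for the class and a sum for all other classes and serving as a block. The 3 libraries carry different treatments, so the p-values speak only of these 3 libraries. With 2 residual degrees of freedom, the fit takes the spread of a gene largely from the other genes. How far it does so differs between comparisons, so p-values of different classes cannot be compared. The very small p-values below do not measure the spread of a gene between the 3 libraries. A small p-value does not by itself mean that the 3 libraries agree, so their values are given beside many of the calls. Of the 93 genes, 54 had the 15 UMIs in these sums needed for testing, and the p-values were adjusted by Benjamini-Hochberg over all 9693 genes tested. The 54 include 5 slitrk genes and unc50. Because a gene detected in a class with few UMIs can only be tested if it is high elsewhere, the counts below are descriptions beside the share of all tested genes that passed.

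**Figure D2:**
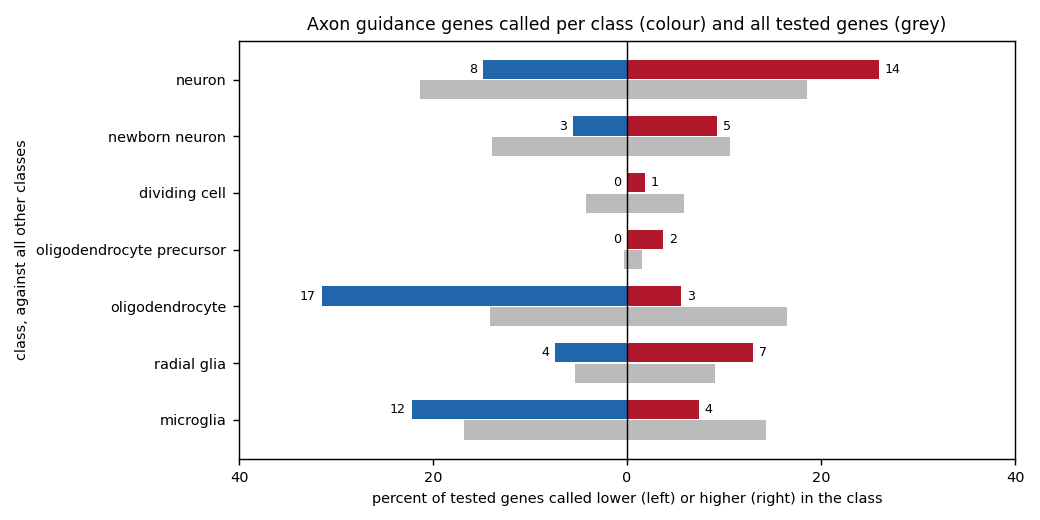
Percent of the 54 tested guidance genes that were lower (blue, left) or higher (red, right) in a class than in all other classes at an adjusted p under 0.05, with the number of genes beside each bar and the same percent over all 9693 tested genes in grey. Neurons had 14 higher and 8 lower, oligodendrocytes 3 higher and 17 lower.

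sema5a, a membrane-bound semaphorin that can attract or repel axons, was concentrated in OPCs. Marker-positive OPCs held 6468, 6045 and 5577 CPM in Ctrl, Zn10 and Zn15, and all other classes together 712, 749 and 915. The 2 groups did not overlap in any library, and the fitted log2 difference was 3.49 ± 0.18 (3 libraries, edgeR adjusted p = 3.8e-79). Here and below, ± is an SE derived from the log2 difference and the F statistic of the test, not the spread between libraries. In the OPC-like cluster the level was 8175, 8120 and 8951 CPM, and this cluster held 73.0% of all clustered sema5a UMIs. The next highest was an unnamed cluster led by c6, prdm8 and lgals2a, with 889 CPM over the libraries. After each barcode was thinned to 200 UMIs, 69.0% of barcodes in the OPC-like cluster had a sema5a UMI (exact binomial interval 65.2 to 72.7%) against 0.856% in microglia clusters, cells taken here as lacking the gene. Without thinning the shares were 83.4% and 0.976%, at median depths of 464 and 371 UMIs, and 13 and 76 shallower barcodes were left out by thinning. In rodents, Sema5A has been described in oligodendrocyte lineage cells of the optic nerve.

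plxnb1a, which encodes a B-type plexin, was the only other guidance gene to pass in marker-positive OPCs. It stood at 386, 545 and 253 CPM there and at 80.8, 133 and 121 elsewhere, a log2 difference of 2.29 ± 0.50 (adjusted p = 0.00068) that rested on 22 OPC UMIs. In the 3 libraries the groups did not overlap. The call was lost without the Zn10 library (log2 2.07, adjusted p = 0.65). The count of 2 higher and 0 lower compares with 1.57% and 0.371% of all genes. Scaling factors taken over all tested genes changed it to 1 higher and 1 lower, beside 32 and 392 of all 9693 genes. The class holds only 56031 UMIs, 32 of the 54 tested genes had none there, and the members' median log2 of -4.72 becomes 0 with those genes at their bound of 3 counts, beside -0.53 for all genes. Here and below, the median of all genes had no gene placed at a bound. A member median at the bounds is therefore not a like measure to it. In the OPC-like cluster, slitrk2 stood at 108, 91.2 and 47.4 CPM, and this cluster held 43.9% of its clustered UMIs. robo1 and slit2 were near absent from it, with 1 and 2 UMIs in 316173.

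efna1b, an ephrin-A ligand anchored to the membrane by a lipid, marked mature oligodendrocytes. Its level was 253, 141 and 216 CPM there in Ctrl, Zn10 and Zn15 and 13.1, 14.6 and 12.4 in the other classes. Each library showed the difference, and the log2 value was 4.32 ± 0.32 (adjusted p = 1.6e-38). The oligodendrocyte-like cluster, led by cx47.1, held 71.2% of its clustered UMIs. plxnb2a (ENSDARG00000003811), another B-type plexin, stood at 53.2, 64.3 and 58.5 against 18.7, 24.9 and 21.0 (log2 1.80 ± 0.44, adjusted p = 0.00033), and plxnb1a at 124, 321 and 205 against 74.7, 124 and 111 (log2 1.33 ± 0.24, adjusted p = 3.8e-07). These were the 3 guidance genes higher in oligodendrocytes, or 3 of 54 where 16.5% of all genes were higher.

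Lower in oligodendrocytes were 17 of 54 guidance genes, where 14.1% of all genes were lower. The members' median log2 was -1.53, or -1.04 with the 12 genes that had a group at 0 placed at their bound, and that of all genes was 0.0038. They came from most families: 3 of 4 tested Robo genes, 3 of 10 plexins, 3 of 6 EphA and 2 of 4 EphB receptors, both ephrin-B ligands, 1 of 6 ephrin-A ligands, 1 of 2 Slits and 2 of 13 semaphorins. sema3fa, a secreted class 3 semaphorin, had 0, 0 and 11.7 CPM in oligodendrocytes and 86.8, 80.5 and 63.0 elsewhere (log2 -3.78 ± 0.69, adjusted p = 5.3e-07). sema5a had 48.8, 0 and 117 against 907, 1005 and 1151 (log2 -3.65 ± 0.24, adjusted p = 5.7e-50). In both genes every oligodendrocyte value lay below every value of the other classes. ephb3a, an EphB receptor, was lower on 3 oligodendrocyte UMIs (log2 -2.91 ± 0.66, adjusted p = 9.9e-05), and plxnb1b had 13.3, 0 and 5.85 against 43.9, 65.9 and 93.6 (log2 -2.59 ± 0.61, adjusted p = 0.00016). epha6, plxna3 and epha4l had no UMI in any oligodendrocyte sum and were at least 2.2-fold, 2.54-fold and 2.37-fold lower, taking 3 counts over the 3 libraries as the floor. robo2 (ENSDARG00000014891), efna2a and efnb3b passed with 1 UMI each in oligodendrocytes (log2 -3.21, -3.11 and -2.79).

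Of the 13 oligodendrocyte calls named here, 7 held in each fit that left out a library. Without Ctrl the adjusted p of robo2, efna2a, efnb3b, plxna3, epha4l and epha6 lay between 0.076 and 0.30, and without Zn15 those of efna2a, efnb3b, plxna3, epha4l and epha6 between 0.11 and 0.31. Without Zn10 efnb3b (0.074) and epha6 (0.11) were lost. The count was 14 of 39, 17 of 46 and 13 of 41 tested guidance genes without Ctrl, Zn10 and Zn15. Of all genes 22.8, 28.9 and 24.6% passed in these fits, and 30.6% with all libraries. plxna3 and efnb3b did not pass in the oligodendrocyte-like cluster (adjusted p = 0.13 and 0.15).

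Oligodendrocytes and their precursors were also set against each other directly, with 8 guidance genes tested among 3639 genes. Here sema5a was at 48.8, 0 and 117 CPM in oligodendrocytes and at 6468, 6045 and 5577 in OPCs, a log2 difference of -7.42 ± 0.27 (adjusted p = 1.2e-158). efna1b showed the opposite: 105 UMIs in oligodendrocytes and none in OPCs, at least 4.13-fold higher in oligodendrocytes with 3 counts as the floor (adjusted p = 0.040). efnb2a, an ephrin-B ligand, had 79.8, 12.9 and 29.2 against 193, 273 and 380 (log2 -3.76 ± 0.70, adjusted p = 3.4e-06). epha7, an EphA receptor, had 88.7, 141 and 70.2 against 193, 364 and 465 (log2 -2.75 ± 0.57, adjusted p = 4.4e-05), and neither gene's groups overlapped. plxna4 (log2 -3.05, adjusted p = 0.037) and plxnb1a (log2 -1.64, adjusted p = 0.012) were also lower in oligodendrocytes, each on few OPC UMIs (8 and 22). The efnb2a and epha7 calls rested on few as well, with a UMI of each in 15 of 124 OPC barcodes. So 1 of 8 was higher and 5 were lower, where 2.94% and 8.27% of all genes passed, and the members' median was -2.2 beside -0.35 for all genes.

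Leaving out any of the 3 libraries kept only the sema5a call in this pair. The calls of efna1b and plxnb1a were lost without Ctrl (adjusted p = 0.064 and 0.18), without Zn10 (0.21 and 0.23) and without Zn15 (0.39 and 0.054). plxna4 was lost without Zn10 (0.52) and Zn15 (0.46) and had too few UMIs to be fitted without Ctrl, and efnb2a (0.059) and epha7 (0.14) were lost without Zn15. This left 3 of 6, 3 of 7 and 1 of 7 tested guidance genes called without Ctrl, Zn10 and Zn15, beside 11.2, 6.16 and 6.76% of all genes. Total UMIs without a scaling factor ended the calls of plxna4 and plxnb1a, and so did factors over all tested genes. These scalings move the median of all genes by 0.85 and 1.08 in this pair. The efna1b call was also lost with DESeq2, without the filter on low counts and with at least 3 marker UMIs. plxna4 was lost without that filter and with at least 3 marker UMIs too.

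**Figure D3:**
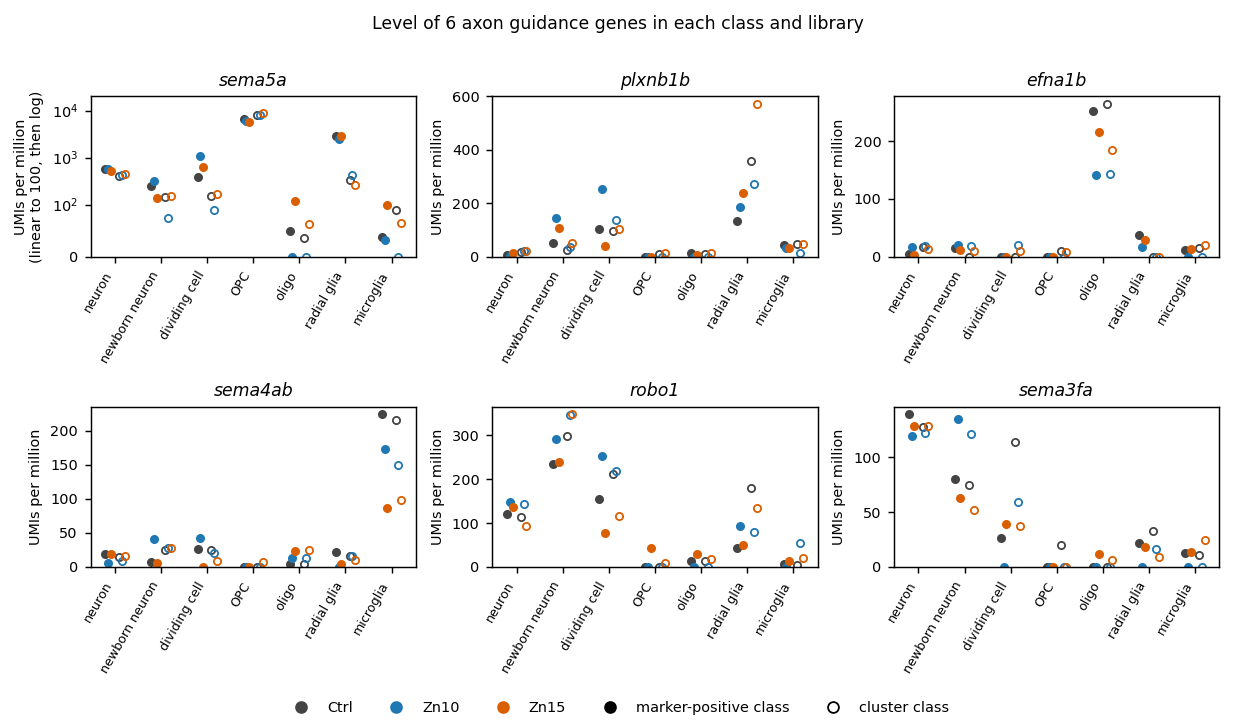
Level of sema5a, plxnb1b, efna1b, sema4ab, robo1 and sema3fa in each class and library, in CPM, for marker-positive classes (filled points) and for cluster classes (open points). OPC stands for oligodendrocyte precursor and oligo for oligodendrocyte, and the sema5a axis is linear to 100 and logarithmic above. In radial glia the open sema5a points (327, 417 and 267) lie far below the filled ones (2921, 2429 and 2928).

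plxnb1b, the second plexin B1 gene of zebrafish, was highest in radial glia, the neural stem and support cells of the fish brain. Marker-positive radial glia held 134, 185 and 240 CPM in Ctrl, Zn10 and Zn15, and the other classes 22.5, 35.8 and 34.1. The 3 libraries agreed and did not overlap (log2 3.04 ± 0.26, adjusted p = 7.7e-30), and the call held in every alternative tried. Clusters gave a sharper picture. A cluster of 141 barcodes whose leading genes include cx43, slc4a4a and slc1a2b had 876 CPM, while a radial glia-like cluster of 510 barcodes led by cxcl18b, cnn2 and sfrp5 had 195. robo4, a Robo receptor described mainly in vessel endothelium, stood at 53.8, 16.8 and 35.7 in radial glia and at 7.20, 9.35 and 16.0 elsewhere (log2 2.14 ± 0.55, adjusted p = 0.0012). Its call was lost without Ctrl (log2 1.49, adjusted p = 0.21) and without Zn15 (log2 2.61, adjusted p = 0.17). Vessel markers summed to 224 CPM in the radial glia class, 9 of 9 were detected there, and their part in the robo4 value was not tested.

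sema5a in radial glia depended on how the class was drawn. The marker-positive class had 2921, 2429 and 2928 CPM against 396, 619 and 433 (log2 2.98 ± 0.14, adjusted p = 1.3e-93), but 80.0% of its sema5a UMIs came from barcodes of the OPC-like cluster. In the radial glia-like clusters the level was 327, 417 and 267, and the fitted difference turned to -1.31 (adjusted p = 1.9e-08). plxnb1a was higher in the marker-positive class only, at log2 1.42 ± 0.21 (adjusted p = 7.9e-10) there and -0.015 in the clusters (adjusted p = 0.997), with 61.6% of its radial glia UMIs in OPC-like barcodes. slitrk2 went from 1.79 (adjusted p = 0.016) to -6.16 (adjusted p = 0.39), with no UMI in the radial glia-like clusters. plxnb1b and robo4 were higher in both sets.

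Counted over the marker-positive class, 7 of 54 guidance genes were higher and 4 lower in radial glia, where 9.11% and 5.35% of all genes passed, and the median log2 was 0.20 beside 0.048 for all genes. With total UMIs and no scaling factor the split was 4 higher and 7 lower, beside 518 and 1206 of all 9693 genes, since that scaling moves the median of all genes by -0.41. efnb2a (log2 0.90 ± 0.20, adjusted p = 0.00019) and epha7 (log2 0.70 ± 0.17, adjusted p = 0.00074) were higher by little, and neither passed in the cluster set (adjusted p = 0.11 and 0.90). sema3fa had 21.5, 0 and 17.9 CPM against 80.1, 85.7 and 67.1 (log2 -1.88 ± 0.44, adjusted p = 0.00038), and ephb3a 16.1, 8.40 and 21.4 against 58.5, 62.3 and 62.9 (log2 -1.44 ± 0.46, adjusted p = 0.015). robo2 and epha6 had no UMI in radial glia and were at least 5.36-fold and 2.82-fold lower. None of these 4 lower calls held in the radial glia-like clusters, where the adjusted p was 0.23 for sema3fa, 0.81 for ephb3a, 0.57 for robo2 and 0.47 for epha6. The count was 7 of 39 without Ctrl, 10 of 46 without Zn10 and 2 of 41 without Zn15. Of all genes 11.6, 13.0 and 2.34% passed in these fits, and 14.5% with all libraries. The 2 without Zn15 were plxnb1b and sema5a, and the other 9 named calls had an adjusted p between 0.060 and 0.38 there. slitrk2, epha6 and ephb3a were also lost without Ctrl (adjusted p 0.11 to 0.21) and without Zn10 (0.058 to 0.12).

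Microglia, the resident macrophages of the brain, had 4 of 54 guidance genes higher, where 14.3% of all genes were higher. sema4ab, a class 4 membrane semaphorin, stood at 224, 173 and 85.9 CPM there in Ctrl, Zn10 and Zn15 and at 15, 12.9 and 13.1 elsewhere (log2 4.06 ± 0.44, adjusted p = 6.4e-19). plxnc1, whose mammalian counterpart binds Sema7A, stood at 37.4, 142 and 92.5 against 0.880, 8.61 and 11.2 (log2 4.24 ± 0.60, adjusted p = 2.2e-11). epha2a, an EphA receptor, stood at 31.1, 15.7 and 39.6 against 3.52, 2.87 and 1.87 (log2 3.97 ± 0.90, adjusted p = 8.0e-05) on 12 microglial UMIs. All 3 were higher in every library without overlap. robo4, higher in radial glia too, was at 18.7, 31.5 and 66.1 against 13.2, 8.61 and 14.1 (log2 2.2 ± 0.66, adjusted p = 0.0045), with a call lost without Zn15 (log2 1.72, adjusted p = 0.33). The microglial clusters differed among themselves: sema4ab was at 180 CPM in a cluster of 766 barcodes whose leading genes include il1b and at 107 in a cluster of 361 led by lgals3bpb.

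Lower in microglia were 12 of 54 guidance genes, beside 16.8% of all genes. The members' median was -2.13 beside -0.84 for all genes, both without bounds. With 13 members at their bound it was -0.81. efnb2a had 18.7, 0 and 6.61 CPM against 164, 185 and 142 (log2 -3.30 ± 0.57, adjusted p = 7.7e-08), robo1 had 6.23, 0 and 13.2 against 100, 139 and 108 (log2 -3.18 ± 0.66, adjusted p = 1.5e-05), and sema5a had 37.4, 31.5 and 99.1 against 860, 981 and 1134 (log2 -3.46 ± 0.29, adjusted p = 2.5e-31). ephb3a (log2 -3.82), epha4a (-3.17), ephb2b (-2.89), slit2 (-2.49), sema3fa (-2.17) and plxna4 (-1.98) were lower too, on 1 to 6 microglial UMIs each, and efnb3b had none and was at least 2.46-fold lower. Without Ctrl, Zn10 and Zn15 the count was 10 of 39, 10 of 46 and 7 of 41. Of all genes 20.9, 27.0 and 22.5% passed in these fits, and 31.1% with all libraries. Without Ctrl efnb3b, epha4a, ephb2b and sema3fa were lost (adjusted p 0.18 to 0.40), without Zn10 efnb3b, epha4a, slit2, sema3fa and plxna4 (0.068 to 0.13), and without Zn15 efnb3b, epha4a, ephb3a, sema3fa and plxna4 (0.056 to 0.33). epha2a had enough UMIs only for the fit without Zn10, and epha4a did not pass in the microglia-like clusters (adjusted p = 0.11). With total UMIs and no scaling factor 22 were lower and 4 higher, beside 2783 and 1010 of all 9693 genes, as the median of all genes moves by -0.57.

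In neurons 14 of 54 guidance genes were higher and 8 lower, where 18.5% and 21.3% of all genes passed. The members' median log2 was 0.57 beside -0.047 for all genes. sema3fa stood at 139, 119 and 128 CPM in neurons and 23.7, 31.8 and 25.6 elsewhere (log2 2.21 ± 0.24, adjusted p = 4.1e-09). slit2, a secreted Robo ligand, stood at 112, 222 and 137 against 46.1, 68.5 and 36.0 (log2 1.53 ± 0.21, adjusted p = 3.4e-07). ephb3a stood at 87.4, 88.0 and 95 against 27.7, 24.5 and 36.0 (log2 1.5 ± 0.25, adjusted p = 1.0e-05). For these 3 genes the lowest neuron value was above the highest value of the other classes. epha6 had the largest fitted difference (log2 3.29 ± 0.61, adjusted p = 4.6e-05), at 20.5, 34.1 and 30.7 against 0, 4.90 and 3.49. Of the 4 Robo genes tested 3 were higher: robo2 at 52.1, 42.6 and 33.5 against 7.90, 2.45 and 14.0 (log2 2.16 ± 0.43, adjusted p = 0.00010), and robo1 and robo3 by 0.62 and 0.84 (adjusted p = 0.011 and 0.025). In the neuron-like clusters robo2 alone of these passed, with robo1 at -0.062 (adjusted p = 0.86) and robo3 at 0.67 (adjusted p = 0.054).

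Further genes higher in neurons were slitrk3a (log2 2.54), efna3a (2.43), efnb3b (1.93), epha4l (1.73), slitrk4 (1.32), sema6e (1.1) and plxna4 (0.98). Of these 7, epha4l and plxna4 also passed in the neuron-like clusters, while the others had an adjusted p from 0.22 to 0.62 there. Lower in neurons were the genes seen above in glia and microglia: plxnb1b at 7.44, 2.84 and 14.0 CPM against 60.6, 108 and 109 (log2 -3.50 ± 0.36, adjusted p = 1.3e-09), epha2a (-3.30), efna1b (-3.05), plxnc1 (-2.38), plxnb1a (-1.74), robo4 (-1.66), sema4ab (-1.52) and sema5a (-1.05). sema5a was still at 573, 582 and 511 in neurons, but 51.9% of these UMIs came from barcodes of the OPC-like cluster that had more neuron than other markers. epha2a and robo4 did not pass in the neuron-like clusters (adjusted p = 0.80 and 0.099). Of the 18 calls named for neurons by size, 15 had enough UMIs to be fitted without each library in turn, and 12 of these held each time. slitrk3a and efna3a could be fitted in 2 of these fits and epha2a in 1. robo4 was lost without Ctrl (adjusted p = 0.15), and robo4 (0.16), efna3a (0.13), epha4l (0.23) and plxnc1 (0.050) without Zn15. In that fit 14 of 41 guidance genes passed in all, beside 36.3% of all genes.

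**Figure D4:**
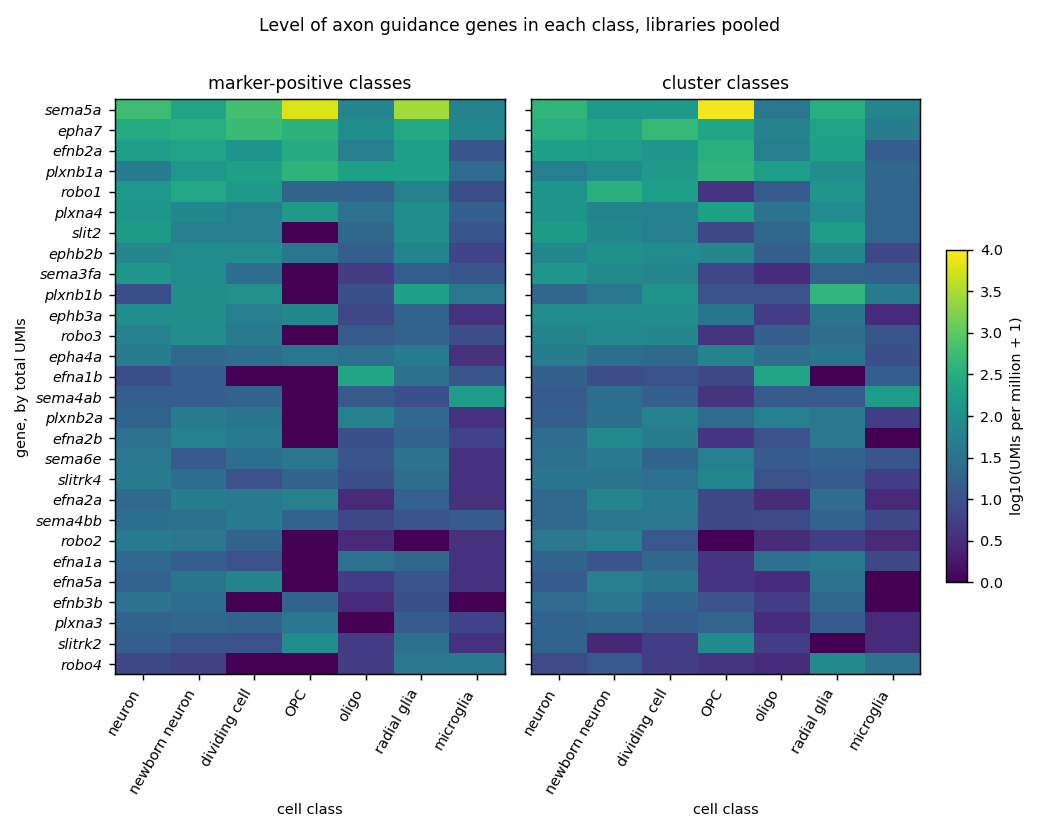
Level of the guidance genes with at least 60 UMIs in each class, libraries pooled, as log10 of CPM plus 1, for marker-positive classes (left) and cluster classes (right). OPC stands for oligodendrocyte precursor and oligo for oligodendrocyte. The sema5a row is brightest in OPCs in both panels and bright in radial glia only in the left one, and efna1b is bright in oligodendrocytes and sema4ab in microglia in both.

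Newborn neurons, marked by sox11, sox4 and similar genes, had robo1, robo3, efna2a, efna2b and ephb3a higher, and sema5a, efna1b and slit2 lower. robo1 and robo3 also passed as higher in neurons. robo1, the Robo receptor with most UMIs, stood at 235, 292 and 241 CPM against 71.5, 104 and 71.9 (log2 1.54 ± 0.22, adjusted p = 6.5e-11). In clusters its highest level was 394, in a newborn neuron-like cluster led by bnc2, barhl2 and zfhx3 that held 26.2% of its clustered UMIs, with 363, 400 and 418 in Ctrl, Zn10 and Zn15. By markers of single barcodes this cluster held 357 neurons and 268 newborn neurons. The same cluster had the highest efna5a level, at 60.6. robo3 stood at 110, 41.7 and 103 against 36.2, 51.2 and 20.1 (log2 1.34 ± 0.34, adjusted p = 0.00087), so that Zn10 alone was not higher. efna2a (log2 1.43 ± 0.49, adjusted p = 0.018), efna2b (1.31 ± 0.44, 0.015) and ephb3a (0.85 ± 0.32, 0.036) completed the 5 higher genes. Lower were sema5a, at 242, 323 and 137 against 819, 985 and 1151 (log2 -2.27 ± 0.16, adjusted p = 2.0e-40), efna1b (log2 -1.74) and slit2 (log2 -0.84, adjusted p = 0.048).

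The 5 higher and 3 lower of 54 compare with 10.6% and 13.9% of all genes, and the median of -0.037, or 0.011 at the bounds, with -0.25. The split was 8 and 2 with total UMIs unscaled, beside 1196 and 1185 of all 9693 genes. It was 4 and 4 with factors over all tested genes, beside 768 and 1610. ephb3a (adjusted p = 0.16) and slit2 (0.58) did not pass in the newborn neuron-like clusters. Of 12 alternative settings, the slit2 call was kept in 3 and the ephb3a call in 5. Both were lost with DESeq2, without the filter on low counts and without the library block. DESeq2 also ended the calls of efna2a, efna2b, robo3 and efna1b. Only robo1 and sema5a held without each library in turn. Without Ctrl efna2a, efna2b, ephb3a and efna1b were lost (adjusted p 0.076 to 0.38), without Zn10 slit2 (0.33), and without Zn15 efna2a, efna2b, robo3, ephb3a, efna1b and slit2 (0.10 to 0.34). The counts left were 4 of 39, 9 of 46 and 2 of 41 without Ctrl, Zn10 and Zn15, beside 20.6, 22.4 and 18.9% of all genes.

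In dividing cells epha7 alone passed, at 857, 296 and 390 CPM in Ctrl, Zn10 and Zn15 against 235, 280 and 208 (log2 1.16 ± 0.26, adjusted p = 0.00022). The 3 libraries were unequal, and without Ctrl the difference was 0.60 (adjusted p = 0.50). The epha7 call was also lost with DESeq2 and with factors over all tested genes. The cluster led by aspm and tpx2 also had Ctrl highest, at 710, 446 and 369, with Zn10 and Zn15 in the other order. The count of 1 higher and 0 lower compares with 5.91% and 4.23% of all genes, and 5 of 54 had an unadjusted p under 0.05. Their median was -0.43, or 0 with 16 genes at their bound, beside -0.24 for all genes. Factors over all tested genes gave 0 higher and 2 lower, beside 295 and 1099 of all 9693 genes.

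Among neurons, those with GABA markers were compared with those with glutamate markers, over 20 guidance genes and 4308 genes in all. sema3fa was higher in GABAergic neurons, at 218, 242 and 375 CPM against 123, 37.6 and 86.4 (log2 1.69 ± 0.34, adjusted p = 0.0022). The lowest GABAergic value lay above the highest glutamatergic one. slit2 was lower, at 58.1, 105 and 97.2 against 146, 348 and 162 (log2 -1.30 ± 0.35, adjusted p = 0.032), and so was epha4l, at 0, 0 and 13.9 against 30.6, 47.0 and 97.2 (log2 -3.53 ± 0.96, adjusted p = 0.036), on 1 UMI against 18. Of all genes 1.11% were higher and 1.58% lower, and the members' median was 0.28 beside 0.013. DESeq2 called none of the 20, beside 0.395% of all genes, and without the library block sema3fa alone passed, beside 1.67%. epha4l and slit2 were lost without Ctrl (adjusted p = 0.24 and 0.19) and slit2 without Zn10 (0.48), while epha4l had too few UMIs for the other fits. This left 1 of 15, 1 of 16 and 2 of 14 genes called without Ctrl, Zn10 and Zn15, beside 1.70, 2.48 and 2.74% of all genes.

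Clusters placed these genes within the neurons. slit2 was highest in a neuron-like cluster whose leading genes include gng8, gpr139 and kiss1, at 302, 482 and 370 CPM, which held 19.3% of its clustered UMIs. sema3fa was highest in a cluster led by rgs4, slc32a1 and gad2, at 246, 395 and 282, with 18.1% of its clustered UMIs. robo3 was also highest in the first of these clusters, at 129, 167 and 77.9, on 19 UMIs. epha7 was spread widely, and its highest level, 1313, was in a small unnamed cluster of 58 barcodes led by cp, epd and slc13a4 that held 4.59% of its clustered UMIs.

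The cluster classes gave their own counts over 54 guidance genes and 10007 genes in all. Neuron-like clusters had 10 higher and 7 lower, beside 15.7% and 15.3% of all genes, and newborn neuron-like clusters 7 and 3, beside 8.06% and 11.9%. The dividing cluster had 3 and 3, beside 12.3% and 13.7%, and the OPC-like cluster 10 and 5, beside 7.83% and 5.55%. Of the 10 higher in the OPC-like cluster, 4 were slitrk genes. The oligodendrocyte-like cluster had 4 and 16, beside 15.6% and 14.2%, radial glia-like clusters 3 and 2, beside 4.94% and 2.19%, and microglia-like clusters 4 and 16, beside 15.8% and 18.7%. The set with GABA markers against that with glutamate markers had 1 and 2 of 17, beside 1.46% and 1.8%, and oligodendrocyte-like against OPC-like 1 and 10 of 12, beside 16.1% and 19.4%. Of these 10 lower genes, 2 were slitrk genes.

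Other guidance pathway genes were followed in the same fits, and their counts are read beside the share of all genes higher and lower, 18.5% and 21.3% in neurons, 16.5% and 14.1% in oligodendrocytes, 14.3% and 16.8% in microglia and 9.11% and 5.35% in radial glia. Of 3 neuropilins tested, nrp2a (log2 2.62) and nrp1a (2.88) were higher in neurons, in both class sets. nrp1a was lower in oligodendrocytes (-2.21) and radial glia (-2.37), and nrp2b, with no microglial UMI, passed as lower there, but none of these 3 passed in the clusters. Of 4 netrin and draxin ligands, draxin, a repulsive ligand, was higher in OPCs (1.85) and dividing cells (0.90) and lower in neurons (-0.75), oligodendrocytes (-2.40) and microglia (-1.79), in both sets. It was also higher in marker-positive radial glia (1.87) and newborn neurons (0.67), where the clusters did not pass. ntn1b was higher in radial glia (2.66), and ntng1a was higher in neurons (1.35) and lower in oligodendrocytes with no UMI there.

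The DCC and neogenin list, which also holds dscama and dscamb, and the repulsive guidance molecules had genes on both sides. Of 4 genes of the DCC and neogenin list, 3 were lower in oligodendrocytes and 3 in microglia (neo1a, dscamb and dscama, in both class sets). neo1a was higher in newborn neurons (log2 1.81) and dscamb lower (-1.68). dscamb was higher in OPCs (3.51) and in marker-positive radial glia (2.09), but lower in the radial glia-like clusters (-1.24, adjusted p = 0.0051), and dscama was higher in marker-positive neurons (1.1) and did not pass in the clusters. Of 3 repulsive guidance molecules, rgmb and rgma were higher in neurons (0.72 and 0.79) and lower in oligodendrocytes (-0.96 and -3.27) and microglia (-4.42 and -2.68), in both sets. rgmd was lower in neurons (-3.40) and higher in radial glia (2.31) in the marker-positive classes only, rgma was higher in radial glia (1.40) and rgmb in newborn neurons (1.27).

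Genes inside the cell and on the axon were mixed. Of 5 CRMP genes, which carry the semaphorin signal to the cytoskeleton, 2 were higher and 1 lower in neurons (1 and 0 in the clusters), 2 were higher in newborn neurons (dpysl3 by 1.03 and dpysl4 by 1.73), all 5 were lower in microglia, 2 were lower in radial glia (0 in the clusters), and in oligodendrocytes dpysl5a was higher (2.91) and dpysl4 lower (-1.64). Among 28 cytoplasmic effectors, 10 were higher and 4 lower in oligodendrocytes, 4 and 9 in neurons, 6 and 5 in microglia and 1 and 1 in radial glia, and in the clusters 9 and 5, 1 and 8, 8 and 6 and 0 and 0. srgap2, which carries Robo signals, was higher in oligodendrocytes (1.71) and microglia (1.09) and lower in neurons (-0.83), and cdc42 was higher in oligodendrocytes (1.96). Of 10 axon adhesion genes 5 were higher and 2 lower in neurons, 2 higher and 4 lower in oligodendrocytes, 3 lower in microglia and 1 lower in radial glia (0 in the clusters). nfasca, which organises the node beside myelin, was higher in oligodendrocytes (3.47) and lower in neurons (-1.35). Of 5 myelin inhibitor receptors 3 were higher in neurons and 3 lower in oligodendrocytes, with rtn4r at 1.37 and -3.09, and 0 passed in microglia or radial glia, though 2 were lower in the microglia-like clusters.

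Libraries were compared as whole brains by the ratio of CPM, with exact conditional binomial intervals of 95% that cover counting error only and with no test, as there is 1 library per treatment. A gene was counted when it had 20 UMIs in the pair and differed by 1.5-fold. Fewer cells of a type and less RNA per cell cannot be told apart in such ratios. The mix of marker-positive classes also moved: oligodendrocytes were 11.7, 8.14 and 8.79% of barcodes in Ctrl, Zn10 and Zn15, OPCs 0.405, 1.82 and 0.951%, radial glia 9.44, 10.0 and 12.7%, and neurons 28.0, 31.3 and 23.1%. The OPC shares rest on 23, 52 and 49 barcodes. In the cluster classes oligodendrocytes were 10.9, 8.21 and 8.17%, OPCs 3.79, 6.07 and 4.50%, and radial glia 3.57, 5.79 and 5.49%. There neurons were 25.3, 29.0 and 18.5% and dividing cells 7.98, 11.3 and 13.2%. Ratios with the class mix of Ctrl are therefore set beside the plain ones. They use only barcodes of the tested marker-positive classes. The plain ratios use all barcodes, with the 4298 of no class, which held 1032720 UMIs. A gap between the plain and the mix ratio thus holds both the fixed mix and the change of barcodes. The part of each was not tested. Both zinc libraries share the Ctrl library, so their values against it are not independent.

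Zn10 over Ctrl had 8 guidance genes higher and 4 lower of 38 measured, beside 16.4% and 10.7% of all genes. Their median log2 ratio was 0.15, and that of all genes 0.093. plxnb1a was at 80.1 CPM in Ctrl and 145 in Zn10, a ratio of 1.81 (1.42 to 2.30), or 1.75 with the Ctrl mix. slit2 was at 71.2 and 122, a ratio of 1.71 (1.32 to 2.23), or 1.79 with the Ctrl mix. Both stayed above 1.5-fold with the mix held fixed, and within marker-positive neurons slit2 had a ratio of 1.99 (1.40 to 2.83). The fixed mix is one of broad classes and does not hold the kinds of neuron fixed. The gng8, gpr139 and kiss1 cluster, where slit2 was highest, had 127 of 5679 barcodes in Ctrl, 136 of 2850 in Zn10 and 160 of 5154 in Zn15. The part of this cluster in the slit2 ratios was not tested. plxnc1 had a ratio of 3.49 (1.49 to 8.81) on 9 and 18 UMIs, efna2b 1.85 (1.12 to 3.07) and sema6e 1.74 (1.04 to 2.91). With the Ctrl mix efna2b came to 1.49 and sema6e to 1.43, under the limit.

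Lower in Zn10 were efna1b, at 42.4 and 22.6 CPM (ratio 0.532, 0.314 to 0.868), and sema4ab, at 43.0 and 23.6 (0.549, 0.328 to 0.888). With the Ctrl mix these came to 0.662 and 0.775. Within oligodendrocytes efna1b had a ratio of 0.560 (0.265 to 1.08), and within microglia sema4ab had 0.772 (0.355 to 1.55), so both intervals include 1. sema5a, below the limit at 1006 against 780 (ratio 1.29, 1.19 to 1.40), had a ratio of 0.935 with the Ctrl mix, and within the OPC-like cluster it was at 8120 and 8175 (ratio 0.993, 0.898 to 1.1).

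Zn15 over Ctrl had 10 guidance genes higher and 8 lower of 44 measured, beside 11.4% and 14.2% of all genes, with a median log2 of -0.016 beside -0.057. plxnb1b was at 38.9 CPM in Ctrl and 74.6 in Zn15 (ratio 1.92, 1.41 to 2.63), and plxnb1a at 80.1 and 127 (1.59, 1.27 to 1.99). With the Ctrl mix they came to 1.5 and 1.35, and within marker-positive radial glia plxnb1b had a ratio of 1.78 (1.11 to 2.94). That ratio does not hold the kinds of radial glia fixed. The small cluster with cx43 and slc4a4a, where plxnb1b was high, had 33 barcodes in Ctrl and 71 in Zn15, beside 536 and 657 marker-positive radial glia. The part of this cluster in the ratio was not tested. 4 genes with few UMIs in Ctrl also passed: plxnc1 (3.69, 1.72 to 8.80), sema7a (3.41, 1.42 to 9.42), sema3aa (2.73, 1.16 to 7.12) and epha4l (2.55, 1.22 to 5.70), with 7 to 11 UMIs each in Ctrl. In mammals Sema7A is the ligand of plexin C1, and here the sema7a UMIs were 7, 12 and 23 and the plxnc1 UMIs 9, 18 and 32 in Ctrl, Zn10 and Zn15. These are raw counts from libraries of 1698707, 974866 and 1634806 UMIs, so they cannot be read as a step from Zn10 to Zn15. By CPM no measured guidance gene was 1.5-fold higher in Zn15 than in Zn10.

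Lower in Zn15 was ephb2b, an EphB receptor, at 74.2 and 42.8 CPM (ratio 0.577, 0.425 to 0.779). The Ctrl mix left it at 0.581, and within marker-positive neurons it had a ratio of 0.552 (0.302 to 0.964). sema4ab had a ratio of 0.598 (0.399 to 0.886), 0.585 with the Ctrl mix, and within marker-positive microglia 0.383 (0.187 to 0.740), from 224 to 85.9 CPM. slitrk4 (0.529, 0.320 to 0.857) and unc50 (0.346, 0.113 to 0.911) were also lower. For sema5a the ratio was 1.20 (1.12 to 1.29) and 0.979 with the Ctrl mix, and within the OPC-like cluster, at 8951 and 8175, it was 1.09 (1.0 to 1.20).

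**Figure D5:**
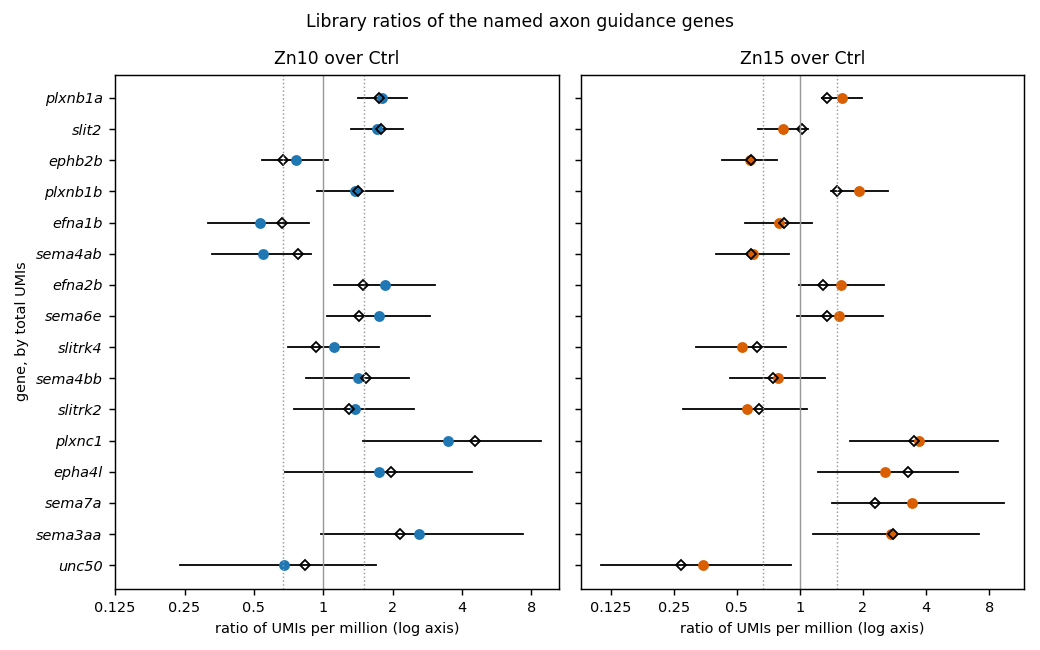
Ratio of CPM to Ctrl for the guidance genes named in a library comparison, for Zn10 (left) and Zn15 (right), on a log axis, with points for the plain ratio, lines for its 95% counting interval and open diamonds for the ratio with the class mix of Ctrl. Dotted lines mark 1.5-fold either way, and a gene with under 20 UMIs in a pair is left out of it. The diamonds of efna1b and sema4ab in Zn10 lie closer to 1 than the points.

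Between the zinc libraries, Zn15 over Zn10 had 0 guidance genes higher and 5 lower of 37 measured, beside 9.11% and 18.5% of all genes, with a median log2 of -0.10 beside -0.14. slit2 was at 122 CPM in Zn10 and 59.3 in Zn15 (ratio 0.486, 0.368 to 0.641; 0.571 with the Ctrl mix). slitrk2 (0.407, 0.196 to 0.820), slitrk4 (0.474, 0.275 to 0.809) and sema4bb (0.557, 0.320 to 0.964) were the others whose interval left out 1. Both slitrk genes count among the 5 lower, though they do not encode Slit ligands. slit2 was thus high in Zn10 alone, with 71.2 in Ctrl and 59.3 in Zn15. By the median of ratios, in place of total UMIs, the split was 5 higher and 5 lower, beside 13.4% and 13.2% of all genes. With malat1 left out of the total it was 4 and 5, beside 11.9% and 13.9%.

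The other pathway lists were compared between libraries by plain ratios alone, without the class mix of Ctrl, without a test and on few genes each. The part of the class mix in these ratios was not tested. In Zn10 over Ctrl, where 16.4% of all genes were higher and 10.7% lower, genes past 1.5-fold were 2 higher of 4 netrin and draxin ligands, 1 of 4 in the DCC and neogenin list, 0 of 3 repulsive guidance molecules, 1 of 3 neuropilins, 0 of 5 CRMP genes, 4 higher and 2 lower of 24 cytoplasmic effectors, 2 and 2 of 8 adhesion genes and 3 higher of 4 myelin inhibitor receptors. In Zn15 over Ctrl, beside 11.4% and 14.2%, they were 2 of 4, 0 of 4, 0 of 3, 1 of 3, 0 of 5, 3 higher and 2 lower of 24, 2 and 2 of 9 and 1 of 4 in the same order. In Zn15 over Zn10, beside 9.11% and 18.5%, all 4 measured myelin inhibitor receptors were lower, 1 of 4 netrin ligands, 1 of 4 in the DCC list, 1 of 3 repulsive guidance molecules and 1 of 3 neuropilins were lower, 0 of 5 CRMP genes passed, 1 of 23 effectors was higher and 2 of 8 adhesion genes were lower. The myelin inhibitor receptors, which let axons sense myelin, had a median log2 ratio of 0.93 in Zn10 over Ctrl, 0.048 in Zn15 over Ctrl and -0.82 in Zn15 over Zn10, beside 0.093, -0.057 and -0.14 for all genes. The netrin and draxin ligands had 0.81, 0.55 and -0.19.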

How the data were processed

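The deposited UMI counts of 3 droplet libraries were used, made by the authors with Cell Ranger 4.0.0 per the file headers; fastp, Seurat and GRCz11 are named in the submitters' processing notes without their role. Symbols were matched without regard to case, which adds SEMA4F and UNC5C. Members, gene lists and comparisons were chosen with earlier results of these data known. Named genes are the 15 members with most UMIs, members past the test in a class comparison (up to 10 a direction by size), members past 1.5-fold between libraries whose interval leaves out 1, and up to 3 genes of each other list. Class sums were tested with edgeR 4.0.16 (R 4.3.3), library as block, genes with at least 15 UMIs that are not markers, and TMM factors from genes with at least 5 UMIs expected in the smallest sum. That set of genes was chosen after the data were seen, in place of all tested genes. An earlier run on simulated data, whose values are not given here, had shown bias with factors over all genes. In the simulation with the chosen set, 88.8% of genes changed 4-fold and 25.8% of those changed 2-fold were recovered for neurons among 9664 genes. For OPCs these were 16.1% and 1.87% among 9672. The simulation gave both sides the same levels apart from the changed genes, with a fixed dispersion, so recovery in the real classes may differ. No value was divided by transcript length. A count of 0 in a whole library allows up to 1.77, 3.08 and 1.84 CPM in Ctrl, Zn10 and Zn15 (3 counts). A 0 in a class allows more, as its sum is smaller. With the 3 libraries pooled, 3 counts are 6.32 CPM in oligodendrocytes, 5.13 in radial glia and 7.99 in microglia. They are 9.84 in GABAergic neurons and 53.5 in OPCs. For a class in a single library the limit is higher still. Intervals cover counting error only. Clusters were computed in scanpy 1.11.5 without the members. DESeq2 1.42.0, other scalings, filters and class rules were tried as alternatives.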

Additional observations from a re-analysis of the deposited data

How the results depend on the processing

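No paired analysis was possible because the labels give each group 1 library and no shared replicate numbers; the library itself was the block in class comparisons. Over the class calls and library ratios of single named genes, 881 values were the same, 157 lost the call, 1 moved and 3 reversed. A class call was the same when kept in its direction. A ratio was the same when it kept its direction and lay within the counting interval of its main value. Such a ratio can lie inside the 1.5-fold limit, and a ratio outside its interval is said to have moved. The reversed values, in radial glia with cluster classes, were sema5a (-1.31), slitrk2 (-6.16) and plxnb1a (-0.015). Of these only sema5a passed there, and slitrk2 had no UMI in those clusters. Leaving out a library gave 14 to 21 called members for neurons, 2 to 9 for newborn neurons, 0 to 2 for dividing cells, 1 to 2 for OPCs, 13 to 17 for oligodendrocytes, 2 to 10 for radial glia, 7 to 10 for microglia, 1 to 2 for GABAergic against glutamatergic neurons and 1 to 3 for oligodendrocytes against OPCs, with 39, 46 and 41 of the 54 members left to test against other classes without Ctrl, Zn10 and Zn15. DESeq2 called 11 in neurons, 2 in newborn neurons, 5 in OPCs, 12 in oligodendrocytes, 7 in radial glia and 0 in GABAergic against glutamatergic neurons, where edgeR called 3 and 5 of 20 had an unadjusted edgeR p under 0.05. Without the library block 3 were called in dividing cells, 6 in OPCs and 1 in GABAergic against glutamatergic neurons, beside 11.6, 2.89 and 1.67% of all genes. Clusters named by plurality of marker-positive barcodes gave 16 for newborn neurons, beside 35.3% of all genes. They gave no value for dividing cells, OPCs or oligodendrocytes against OPCs, since no cluster was named dividing or OPC. Chosen after seeing the data were clusters named by raised markers (6 in dividing cells, 15 in OPCs, 5 in radial glia, 11 in oligodendrocytes against OPCs), factors over all tested genes (2 in dividing cells) and total UMIs unscaled (26 in microglia). In the same order 25.9, 13.4, 7.13, 35.4, 14.4 and 39.1% of all genes were called. Calls shared by marker-positive and raised-marker cluster classes in the same direction were 13 of 22 for neurons, 6 of 8 for newborn neurons, 18 of 20 for oligodendrocytes, 15 of 16 for microglia and 2 of 11 for radial glia. The share of calls kept in this way over all genes was not computed. Between libraries, a minimum of 50 UMIs left 7 of 23, 8 of 26 and 3 of 22 members past 1.5-fold for Zn10 and Zn15 against Ctrl and for Zn15 against Zn10. Of all genes 11.8, 6.66 and 5.34% were then higher and 7.78, 11.4 and 14.8% lower. No minimum gave 47 of 86, 42 of 88 and 39 of 89, beside 29.8, 26.7 and 26.6% higher and 27.2, 25.2 and 29.9% lower. Zn15 over Zn10 had 10 of 37 by median of ratios and 9 without malat1, beside 13.4 and 11.9% higher and 13.2 and 13.9% lower. Beyond the fewer genes or libraries that a setting leaves, the cause was not tested. With 1 library per treatment no treatment effect can be tested, and 41 of the 93 genes had under 20 UMIs.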
